A study of Mus musculus with 4 samples.

Results

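The 4 Eya genes, the 2 Dach genes and the Tle genes Tle1 to Tle4 encode coactivators and corepressors that work with Six3 and its relatives. They were described here by the called regions of a Six3 CUT&RUN table in each gene body and within 50 kb of it. They were taken by name, and 10 of 10 were found among 21631 protein-coding genes of the autosomes and chromosome X. Their intervals held 1736 of the 1578514 regions in the deposited table.

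The regions came from primary mouse neural stem cells in which Six3 was overexpressed. All libraries carry the genotype label WT and were taken 3 h after growth medium with EGF and FGF had been replaced by differentiation medium with B-27. Per the labels, 3 libraries were made for FLAG, an epitope tag, and 1 with IgG, a non-specific antibody that serves as the control. In CUT&RUN an antibody-tethered nuclease cuts chromatin around a bound protein and the freed fragments are sequenced. The labels name neither the overexpression construct and its promoter nor the age of the mice, nor whether the 3 FLAG libraries came from separate cultures. All cells compared carried the added Six3, so nothing here sets them against cells without it. The cell type label could not be checked, since called regions do not measure expression.

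The table holds 1 row per region and no value of a single library. FLAG could therefore not be set against IgG, no error between replicates can be given, the depth per library is unknown, and the values below are descriptions without a test. Each region has the highest signal reached within it and the signal summed over its bases, both on the authors' scale. Of the regions used, 945082 had a highest signal that was a whole multiple of 1.9 and 632401 one that was a whole multiple of 0.48, and heights are given here in such steps. The sets were kept apart because their signals need not share a scale. Around the members lay 1019 regions of the 1.9-step and 717 of the 0.48-step set. A percentile below is a member's place among the 500 protein-coding genes nearest to it in length.

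Six3 and its relatives bind DNA through a homeodomain and recruit partners through a domain beside it. Eya proteins are coactivators with phosphatase activity that reach DNA through these factors, whereas Dach proteins are relatives of the Ski oncoproteins that act with them in the retinal determination network. Tle proteins are corepressors of the Groucho family. They have no DNA-binding domain of their own, and Six3 is known to recruit them when it represses genes in the developing forebrain and eye.

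The first comparison was of the gene starts, which were taken from RefSeq for the assembly with mm10 coordinates. A start was listed for 8 members. Eya1 and Eya2 had none, and for these both ends of the gene were used, which gives a gene more chances of a region. Where 2 starts were listed, as for Eya4, Dach2 and Tle4, the most upstream was used. A start can lie inside the gene's bounds: that of Eya4 was at 23349943, in a gene ending at 23350838. Every member had a region of either set within 1 kb of its start. Across all genes 84.6% did, so the count of 10 lay near the background. A 1.9-step region lay within 1 kb in 8 members, all but Eya2 and Eya3, beside 74.1% of all genes. A 0.48-step region lay there in 4 members, Eya1, Eya2, Eya3 and Tle1, beside 47.0% of all genes. These shares were higher for genes without a listed start: 93.1% of them had a region of either set, against 82.5% of genes with one.

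Tall regions, of 4 or more 1.9-steps (7.6 or higher), lay within 1 kb of the start in 3 members, beside 26.5% of all genes. These were Tle2, Tle4 and Eya1, the last at its upper end. Of members with a listed start, 2 of 8 had one, beside 23.1% of such genes. Among genes without a listed start the share was 40.3%. A region of either set covered the start of Eya4 and Tle1 and the lower end of Eya1. These 3 members stood beside 29.5% of all genes. Of members with a listed start, 2 of 8 had such a region, beside 26.0% of such genes. Of genes without one, 43.6% had it. On both measures the members' count lay near the background.

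Among the coactivator genes, Eya4 had a 1.9-step region of 3.8 over its start and a taller one of 13.3 at 3.48 kb downstream of it. Eya3 had only low 0.48-step regions within 1 kb, the nearer of them 529 bp downstream. Its nearest 1.9-step region, of 7.6, ended 1589 bp upstream, farther than for 82.4% of the 17274 genes with a listed start, whose median was 442 bp. Eya3 was thus the listed-start member whose start lay farthest from the 1.9-step set. At Eya1, a region of 5.7 covered the end with the lower coordinate and one of 7.6 lay 303 bp beyond the other end. At Eya2, 1 region of 1.44 lay within 1 kb of the lower end and none within 1 kb of the upper end.

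Both Dach genes had a single region within 1 kb, and both regions were downstream. At Dach1 it was 5.7 high and 612 bp from the start. At Dach2 it was 3.8 high and 868 bp away. The nearest tall region to the Dach2 start was 19635 bp away, beyond that of 93.7% of genes, whose median was 3388 bp. Dach2, a chromosome X gene, was therefore the member with the emptiest surroundings of its start: 2 regions within 5 kb, where the other members with a listed start had 6 to 11.

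The corepressor genes differed among themselves. At Tle1 a broad 0.48-step region of 858 bp and height 0.96 covered the start, and a 1.9-step region of 5.7 lay 601 bp upstream. At Tle2, regions of 5.7 and 7.6 lay 559 bp downstream and 959 bp upstream. At Tle3 a 1.9-step region of 5.7 began 28 bp downstream and ran for 669 bp, with 10 more regions within 5 kb, none of them tall. At Tle4 the nearest region, of 7.6, lay 671 bp upstream, and a region of 9.5 lay 2284 bp downstream. In the plot of regions around the starts, the 4 Tle genes each carry a 1.9-step region inside the shaded window. It lies upstream at Tle1 and Tle4 and downstream at Tle3, and Tle2 has 1 on each side.

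**Figure D1:**
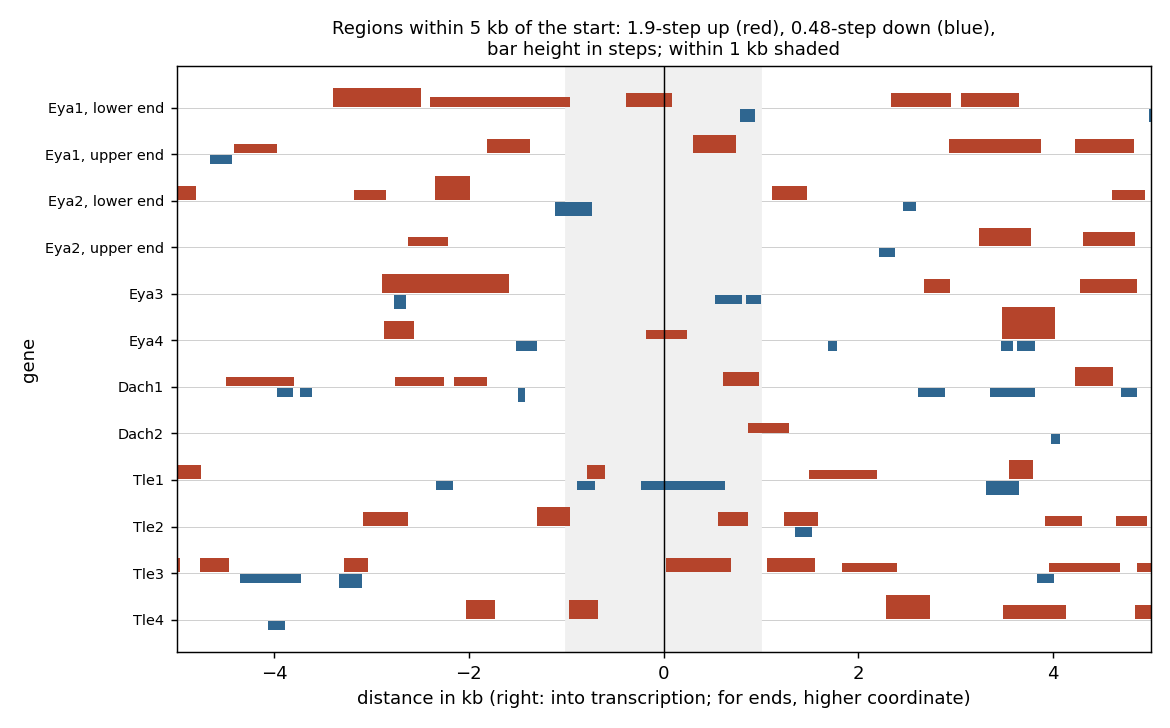
Regions within 5 kb of the start of each member, or of both ends for Eya1 and Eya2, which have no listed start; the horizontal axis is distance in kb and bar height is the highest signal in steps, with the 1.9-step set in red above each line and the 0.48-step set in blue below it. Only Eya4 and the lower end of Eya1 have a red bar over the start, Tle1 has a blue one, and Dach2 has 2 bars in the whole window.

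The promoter window of RefSeq, 250 bases before to 50 after the start, was met by a region of either set in 3 of the 8 members with one, beside 41.8% of 17274 genes. These were Eya4 and Tle3 with a 1.9-step region and Tle1 with a 0.48-step region. Part of the Tle1 window is shown because it is the stretch outside every listed gene that a region covered, on the minus strand at chr4:72200990-72201143. Capitals mark the 133 of 154 bases inside the region of 0.96:
Tle1: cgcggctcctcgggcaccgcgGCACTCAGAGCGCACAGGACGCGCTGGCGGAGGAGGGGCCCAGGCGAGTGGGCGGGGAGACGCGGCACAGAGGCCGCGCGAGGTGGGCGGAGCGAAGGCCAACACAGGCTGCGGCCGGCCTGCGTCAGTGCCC
This stretch was 77.3% G and C. The windows were searched for ATTA, the core that homeodomains commonly recognise, and TGATAC, a longer sequence reported for Six3 relatives. The full Tle1 window held 1 match to ATTA, in the part not printed, which the same region covers. Stretches of 3 other members are shown because they held ATTA. No region covered the printed bases, but the full Tle3 window, with 3 matches, met a 1.9-step region past the start.

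The next lines give the bases before the start that lie outside every listed gene for Dach2 (plus strand, chrX:113297260-113297495), Tle3 (plus strand, chr9:61372116-61372325) and Tle4 (minus strand, chr19:14598184-14598433). Capitals mark ATTA on either strand:
Dach2: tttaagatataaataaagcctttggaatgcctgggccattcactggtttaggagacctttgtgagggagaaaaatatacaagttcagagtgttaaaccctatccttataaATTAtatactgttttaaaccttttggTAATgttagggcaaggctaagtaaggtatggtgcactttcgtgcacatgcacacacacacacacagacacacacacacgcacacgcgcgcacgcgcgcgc
Tle3: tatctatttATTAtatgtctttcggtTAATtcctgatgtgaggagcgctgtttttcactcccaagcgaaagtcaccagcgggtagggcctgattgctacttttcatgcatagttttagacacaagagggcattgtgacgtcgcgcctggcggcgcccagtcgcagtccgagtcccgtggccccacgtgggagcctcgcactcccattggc
Tle4: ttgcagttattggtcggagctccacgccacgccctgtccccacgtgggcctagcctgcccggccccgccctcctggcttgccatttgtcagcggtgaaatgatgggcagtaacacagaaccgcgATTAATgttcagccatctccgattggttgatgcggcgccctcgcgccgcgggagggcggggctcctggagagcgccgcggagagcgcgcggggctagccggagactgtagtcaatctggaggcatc
Each printed stretch held 2 matches to ATTA, which overlap in Tle4, and none held TGATAC. Over the full 300-base windows ATTA was found on either strand in 6 of 8 members and in 52.6% of all promoters. TGATAC was found in 0 of 8 members and in 4.60% of all promoters. A match or its absence describes these letters only. The members' windows had a median of 62.0% G and C, against 56.3% for all promoters. Dach1 (54.0%), Tle3 (53.7%) and Dach2 (45.3%) lay below the median of all promoters, and the other members above it.

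Over the whole intervals the members as a group sat at the middle of the genes of similar length. In the 1.9-step set their median was 0.405 regions per kb, against 0.404 for all genes, and their median percentile was 50.9. In the 0.48-step set the median was 0.264 per kb, against 0.255, with a median percentile of 56.9. Single members departed from this in both directions: Dach2 was low in both sets, Tle2 was high in the 1.9-step set alone, and Tle3 in the 0.48-step set alone.

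**Figure D2:**
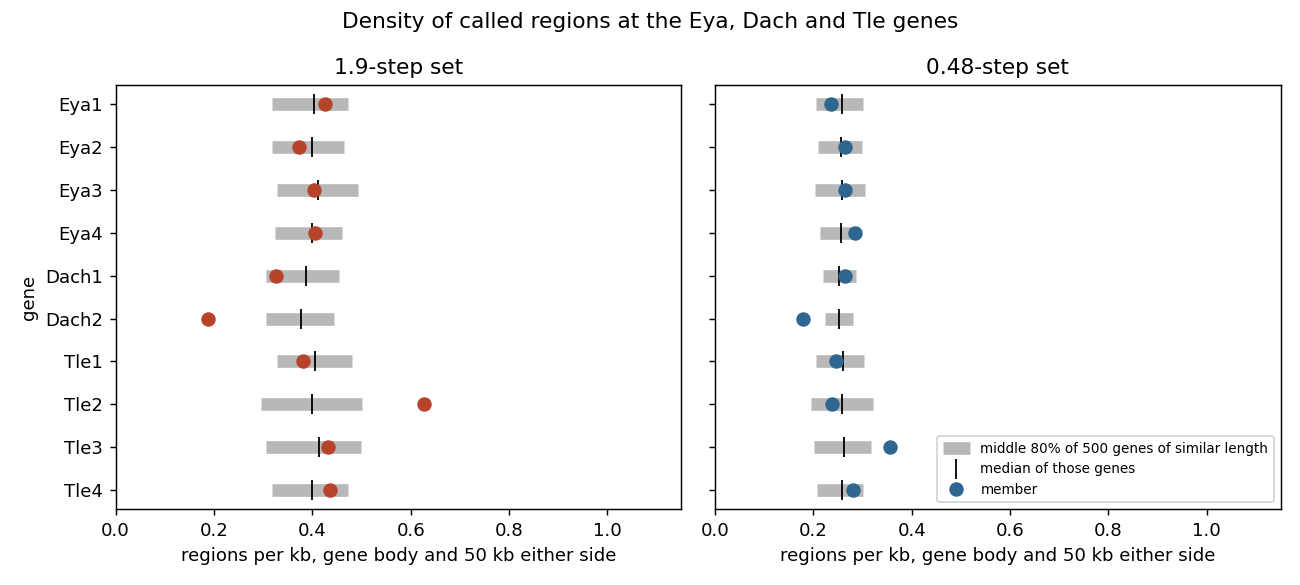
Regions per kb in the body of each member and 50 kb either side, for the 1.9-step set on the left and the 0.48-step set on the right; the grey bar is the middle 80% and the black tick the median of the 500 genes of similar length. Dach2 (0.188 and 0.178) lies left of the bar in both panels, Tle2 (0.628) right of it in the left panel and Tle3 (0.356) right of it in the right panel.

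The 4 Eya genes stayed within the middle 80% of genes of similar length in both sets. Eya1 (chr1:14168953-14311035) had 103 regions of the 1.9-step set, or 0.425 per kb, at percentile 64.6. Eya2 (chr2:165595028-165771727) had the same number over a longer interval, 0.372 per kb, at percentile 30.8. These values put Eya1 above and Eya2 below the middle of genes of their length.

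Eya3 (chr4:132639025-132724765) had 75 regions, 0.404 per kb, at percentile 45.6. Eya4 (chr10:23102962-23350838) had 141 regions, 0.405 per kb, at percentile 56.2. In the 0.48-step set the Eya genes ranged from 0.235 per kb at Eya1, percentile 27, to 0.285 at Eya4, percentile 86.4. The summed 0.48-step signal per kb at Eya4 stood at percentile 97.2, higher than its number of regions did. Eya4 was also the member of this family with the largest share of 0.48-step regions of 4 or more steps, 7.07% against 4.34% over all regions.

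The Dach genes are the longest members and had the fewest 1.9-step regions for their length. Dach1 (chr14:97786846-98169765), a transcriptional repressor of the network, had 158 regions over its interval, 0.327 per kb, at percentile 14. Its summed 1.9-step signal was 485 per kb, at percentile 10. Its 0.48-step regions did not share this: 128 regions, 0.265 per kb, stood at percentile 69.2. Of its 1.9-step regions, 15.2% had 4 or more steps, against 22.7% of all 1.9-step regions and 21.4% of those on chromosome 14.

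Dach2 (chrX:113297496-113836386) had 120 regions of the 1.9-step set, 0.188 per kb, and 114 of the other set, 0.178 per kb. Both stood at percentile 1. The genes of similar length spanned a wide range for this long gene of 538891 bp, from 321488 to 2390387 bp. Against the 100 genes nearest in length on chromosome X it was at percentile 26 and 23, with medians there of 0.206 and 0.197 per kb. Low values were thus common to genes of its length on that chromosome. The share of its 1.9-step regions with 4 or more steps was 12.5%, beside 13.2% over chromosome X. The part of the chromosome in the result was not tested.

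The Tle genes held the highest value of each set. Tle1 (chr4:72109945-72200989) had 73 regions of the 1.9-step set, 0.382 per kb, at percentile 30.8. Its body alone had 0.472 per kb, percentile 83.4, and the 50 kb upstream and downstream had 0.34 and 0.26. The 0.48-step set had the same shape there, with 0.330 per kb in the body, percentile 89.6, and 0.20 and 0.16 in the flanks. Tle1 was therefore denser inside the gene than in its flanks. The surrounding 2 Mb had 0.355 per kb in the 1.9-step set, near the upstream flank, and 0.25 in the 0.48-step set.

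Tle3 (chr9:61372326-61418497) was ordinary in the 1.9-step set, with 63 regions, 0.431 per kb, at percentile 62. In the 0.48-step set it had 52 regions, 0.356 per kb, at percentile 98.4, where the middle 80% of genes of similar length ran from 0.201 to 0.318. It was higher than all 100 genes nearest in length on chromosome 9. The interval was 1.41 times as dense as the surrounding 2 Mb, which had 0.253 per kb. The density was spread along it: 0.368 in the body, 0.32 upstream and 0.38 downstream. Its 0.48-step regions were also broader, with a median width of 237 bp against 195 bp for all such regions, and their summed signal per kb stood at percentile 99.6. Height did not set them apart, since 1 of 52 had 4 or more steps.

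Tle4 (chr19:14448072-14598183) had 109 regions of the 1.9-step set, 0.436 per kb, at percentile 72.8, and 70 of the 0.48-step set, 0.280 per kb, at percentile 73.2. Its 1.9-step density was 0.52 in the 50 kb downstream and 0.38 upstream, and its 0.48-step density 0.30 and 0.34. Tle4 thus stood a little above the middle in both sets.

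**Figure D3:**
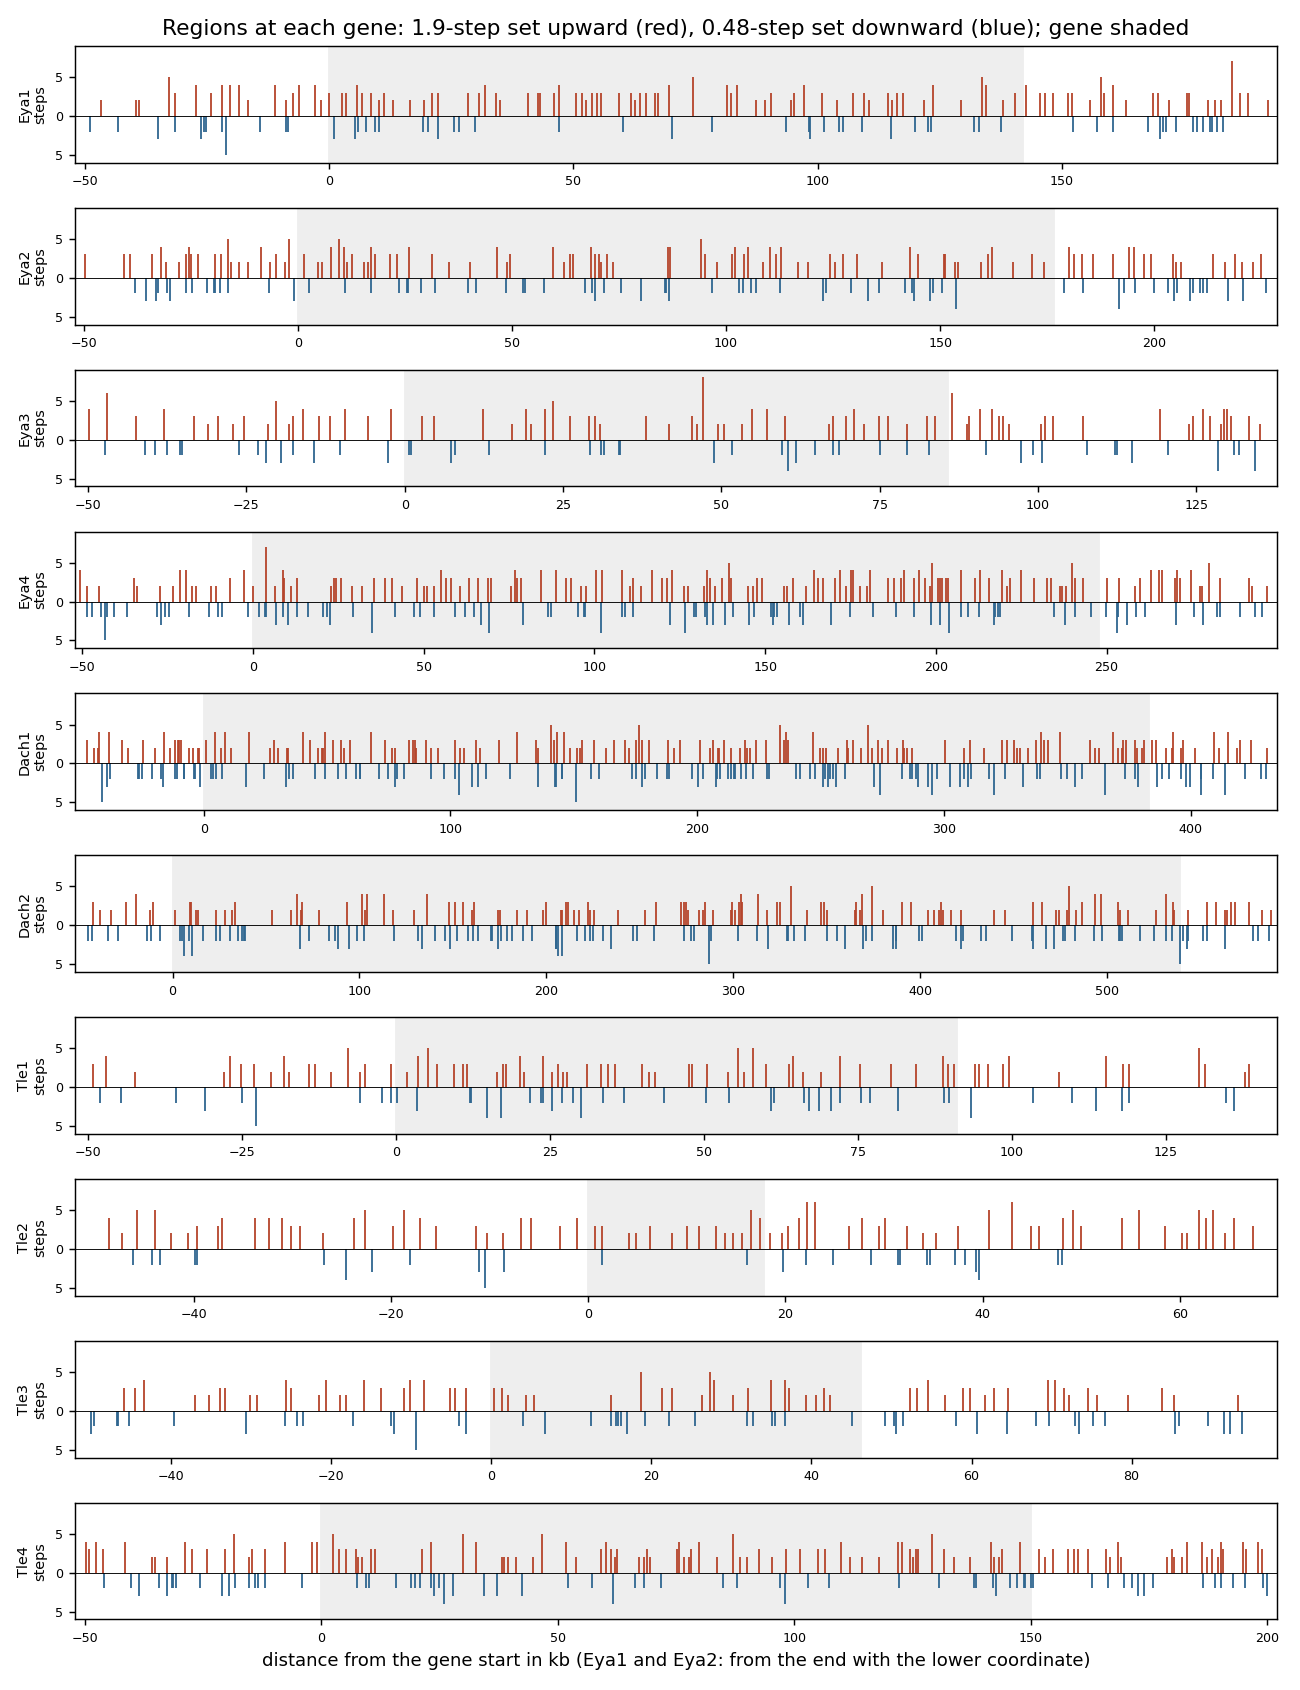
Every region of each member along the gene (shaded) and 50 kb either side, with distance in kb on the horizontal axis and the highest signal in steps on the vertical axis; the 1.9-step set points up in red and the 0.48-step set down in blue. Regions run through genes and flanks alike, the red lines thin out at both ends of Tle1, and the tallest line, of 8 steps, stands inside Eya3.

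Tle2 (chr10:81574739-81592581), the shortest member, had 74 regions of the 1.9-step set in its interval, 0.628 per kb, at percentile 99, where the middle 80% of genes of similar length ran from 0.295 to 0.501. The body alone had 14 regions, 0.785 per kb, at percentile 98.8. Summed 1.9-step signal was 1347 per kb, also at percentile 99, and 41.9% of the regions (31 of 74) had 4 or more steps, the largest share of any member. The 0.48-step set did not follow: 28 regions, 0.238 per kb, stood at percentile 32, with 2 in the body.

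The interval of Tle2 also holds Tle5 and Tle6, relatives of the family, and Gna11, Sirt6 and Ankrd24, which were named after the values were seen. Tle5, a short family member that lacks the WD-repeat domain, had 0.617 per kb over its body and 50 kb either side, and Tle6 had 0.626. These intervals largely overlap that of Tle2 and count many of the same regions, so their values are not separate from its own. The 3 Tle genes lie in a stretch of chromosome 10 from 80 to 92 Mb, with bounds chosen after seeing the data. There the summed 1.9-step signal per 1 Mb bin was 1.45 to 1.97 times the autosomal median, against medians of 1.09 from 74 to 80 Mb and 1.11 from 92 to 98 Mb. The number of 0.48-step regions had a median of 0.935 times the autosomal one, so the rise was in 1 set. Across the stretch 35.3% of 1.9-step regions had 4 or more steps.

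Among the 182 other genes of this stretch the median was 0.595 regions per kb and the middle 80% ran from 0.430 to 0.672. Tle2 stood at percentile 71.4 of them, Tle5 at 62.1 and Tle6 at 68.7. The high rank of Tle2 among all genes of its length was thus shared by much of the stretch, and what raises the stretch was not tested. Eya4 lies on the same chromosome near 23 Mb, outside it.

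**Figure D4:**
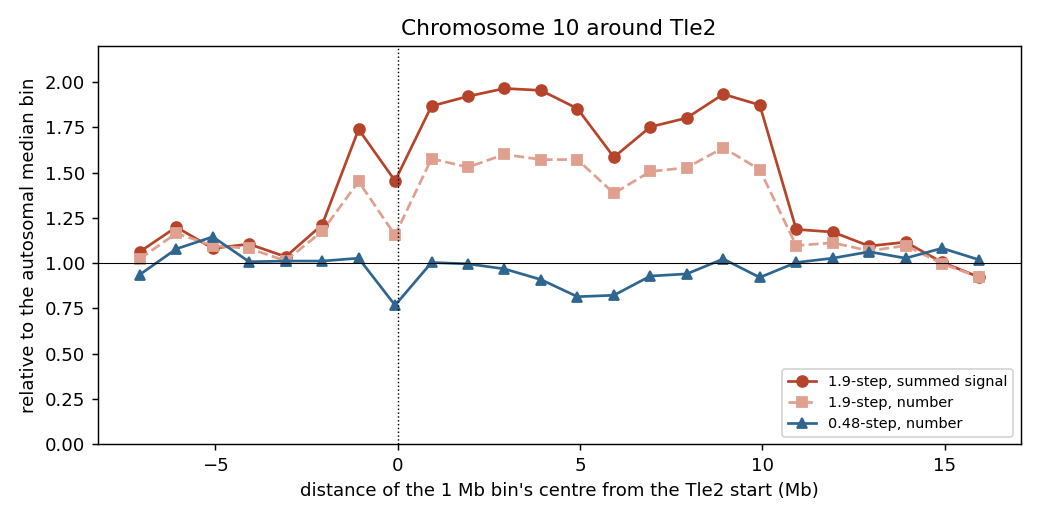
Regions per 1 Mb bin of chromosome 10, relative to the autosomal median bin, by distance of the bin's centre from the Tle2 start in Mb; circles show summed 1.9-step signal, squares the number of 1.9-step regions and triangles the number of 0.48-step regions. The red lines are raised over 12 bins, from the one before that of Tle2 to about 10 Mb past it, while the blue line stays near or below 1. Summed signal ran from 1.45 in the 1 Mb bin of Tle2, the lowest of them, up to 1.97. In bins of 100 kb, which are not drawn, the one that holds Tle2 had 2.03 times the autosomal median.

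The tallest regions were lower at most members than at genes of similar length. The median highest signal of genes of similar length was 11.4 for each member; 3 members, Eya1, Eya3 and Eya4, stood above it, Tle2 was at it, and the other 6 reached 9.5. The members' median percentile was 21.55, with ties shared equally.

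The 3 taller regions were all at Eya genes. At Eya3 a region of 15.2, or 8 steps, lay at chr4:132685872-132686515, 46.8 kb downstream of the start inside the gene, at percentile 94.6. At Eya1 a region of 13.3 lay at chr1:14353124-14354430, 42.1 kb beyond the end with the higher coordinate, at percentile 81.4. At Eya4 a region of 13.3 lay at chr10:23345920-23346467, 3.48 kb downstream of the start inside the gene, at percentile 77.5. The Eya4 region was the one of these that a 0.48-step region also overlapped.

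At Tle2 the highest value of 11.4 was reached by 3 regions, and none lay in the gene. One was nearest to Sirt6, a deacylase gene, 3.32 kb from it, and both others lay in Tle6. At the 6 members that reached 9.5, this height was shared by 2 regions at Tle3, 3 at Dach2, 4 each at Eya2 and Dach1, 5 at Tle1 and 6 at Tle4, so no single region stood out. In the 0.48-step set the highest value was 2.4 at 7 members and 1.92 at Eya2, Eya3 and Tle4. There the members' median percentile was 69.45, so the low rank of the tallest regions was not shared by this set.

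**Figure D5:**
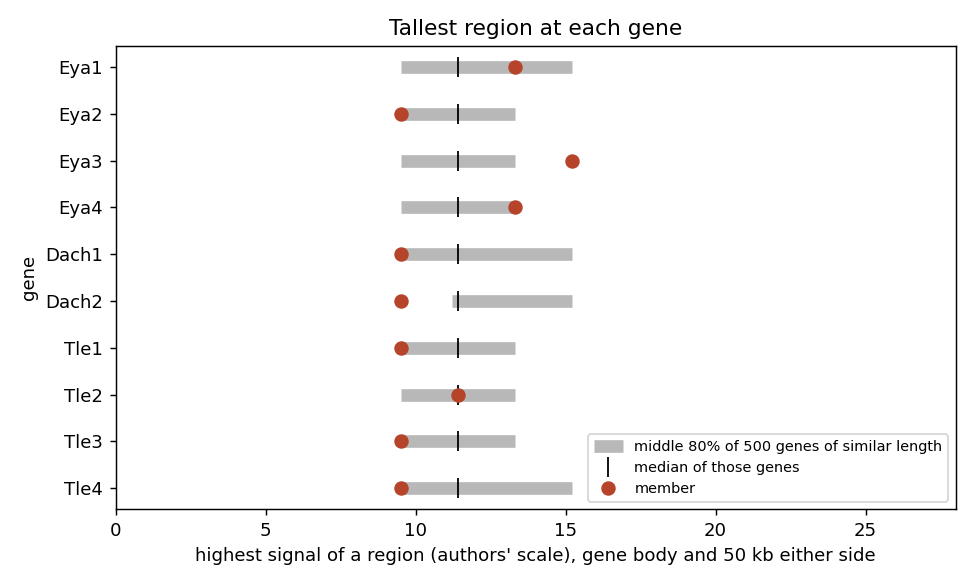
Highest signal of any region in the body of each member and 50 kb either side, on the authors' scale; the grey bar is the middle 80% and the black tick the median of 500 genes of similar length. Eya3 (15.2) lies right of its bar and Dach2 (9.5) left of its own, with Eya1 and Eya4 (13.3) above the median of 11.4, Tle2 at it and all 6 others at 9.5.

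Companion genes of the network were read at their starts in the same way, for a region of 4 or more steps within 1 kb, beside 26.5% of all genes and 3 of 10 members. Of the DNA-binding partners, Six5 reached 9.5 and Six3 and Six4 reached 7.6. Six3 itself was overexpressed in these cells, and whether DNA of the added copy was cut was not tested. Among relatives of the members, 4 of 7 had one: Tle7 reached 9.5 and Tle5, Ski and Skor2 reached 7.6, Ski and Skor2 being kin of Dach. Tle5, Tle7 and Skor2 have no listed start, so both their ends were read. Such a region was found in 40.3% of genes without a listed start and 23.1% of genes with one. The count of 4 is therefore not directly comparable with the 26.5%.

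Of the corepressor complex genes, Sin3a and Ctbp1 reached 7.6. Sin3b, a relative of Sin3a, had no region within 1 kb. Among other partners 1 of 4 had one, Gmnn at 7.6, with both its ends read for want of a listed start, and Pax6, a regulator of eye development, had no region there. Lists this short give no more than these counts.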

How the data were processed

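Called regions were read from the table of mouse neural stem cell CUT&RUN that the authors deposited. The aligner Bowtie2, the coverage tools of deepTools and the region caller SEACR are named, with build mm10, per the submitters' processing notes. Their versions and settings, and how libraries were merged, are not given in the sources. The authors deposited for each region a highest coverage signal and a score, which is that signal summed over its bases, with scaling not stated, and no column holds a single library (0 such columns). A region belonged to the 1.9-step or 0.48-step set when its highest signal was within 0.001 of a whole multiple, and 3 of 1577486 regions on the 20 chromosomes used had no set, none of them near a member. The sets may be differently scaled tracks, which the file does not say.

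Genes, starts and promoter sequences are those of RefSeq, GRCm38.p6. A region was counted in an interval it overlapped by 1 bp or more. Each member was ranked among 500 genes nearest in length, 250 shorter and 250 longer. A shortfall at an end of the length order was made up from the other side. The named companion genes are, per list, up to 2 with the highest signal at the start, with ties, and up to 2 with no region. Certain companion genes, and the counts of their lists, are left unreported. The members and lists were chosen with earlier results of these data known. No test was run, since no value belongs to 1 library. The counting was tested on simulated data. Scripts ran in Python 3.11.15 (pandas 2.3.3, numpy 2.4.6, matplotlib 3.10.9). Alternative flanks, windows, heights and comparison genes were tried.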

Additional observations from a re-analysis of the deposited data

How the results depend on the processing

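Of 45 alternatives, 25 moved the members' summary values little and 20 moved them, and the cause was not tested. This split used set margins around each main value, which do not measure the spread among the 10 members. The median percentile of 1.9-step density, 50.9, became 64.2 for gene bodies alone, 68.6 with flanks of 20 kb, 42.4 with 100 kb, 63.3 for regions of 3 or more steps and 56.2 without Dach2. In alternatives added after seeing the data it became 60.1 relative to the 1 Mb on either side and 45.6 without Tle2. That of 0.48-step density, 56.9, became 45.5, 51.3 and 61.7 with those bodies and flanks and 65.6 for 3 or more steps. That of the highest signal, 21.55, became 34.25 against genes of the same chromosome, 30.9 for bodies and 28.15 with 100 kb. The count of members with a region near the start, 10, became 4 within 500 bp (68.6% of all genes) and 4 for the 0.48-step set alone. The count with a tall region, 3, became 1 within 500 bp (17.8% of all genes), 8 within 5 kb (65.4%), 6 for 3 or more steps (57%) and 0 for 5 or more (8.66%). The members' place near the middle in density is thus not fixed to 1 side of the median. No replicate could be left out and no depth is known. No paired analysis was possible because no column carries the value of a single library.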

Other observations

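The 2 step sets overlapped at the members about as often as elsewhere. Of the 717 regions of the 0.48-step set at the members, 183 (25.5%) were overlapped by a 1.9-step region, against 27.7% over all chromosomes used. The share was 46.4% at Tle2 (13 of 28), 34.0% at Tle1 and 33.3% at Eya4. It was 18.4% at Dach2 and 19.5% at Dach1. The order did not follow 1.9-step density throughout: the share at Tle3, at percentile 62 of that density, was 21.2%, below that at Tle1, at percentile 30.8.

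Beyond Tle2, the 100 kb bin that holds the far end of its interval had 1 times the autosomal median number of 1.9-step regions. The 3 bins after it, which the interval does not reach, had 0.158, 0.132 and 0.342 times. The 0.48-step set was low in these 3 bins too, with 0.28, 0.24 and 0.48 times. Over the next 3.5 Mb the median bin had 1.61 times in the 1.9-step set and 1 times in the 0.48-step set.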
